A study of Mus musculus with 80 samples.

Results

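The mitochondrial ribosomal protein genes were followed in mouse kidney across 4 age groups and both sexes. They were taken as every cDNA clone with exactly 1 gene symbol beginning with Mrpl or Mrps and a digit, which gave 55 clones of 49 genes, out of 16896 clones and 7151 named genes on the arrays. Of these genes 36 encode proteins of the large ribosomal subunit and 12 proteins of the small subunit. The remaining one, Mrps36, is named as a ribosomal protein but is now known as a component of the 2-oxoglutarate dehydrogenase complex. RefSeq lists 78 mouse protein-coding genes whose symbols match, so the other genes of the family are not covered here. The clones lay on 2 nylon filters with different clones, 29 on set A and 26 on set B, and 6 genes had 2 clones.

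RNA of 1 kidney sample per mouse was hybridised to both filters for 40 mice of the inbred strain C57BL/6, which ate regular chow without restriction. The mice fell into 8 groups of 5, males and females of 17 to 44, 169 to 194, 476 to 499 and 704 to 743 days, with no other treatment. The youngest group held 5 mice of 17 to 21 days and 5 of 33 to 44 days. Values are scores, deposited as z scores in units of the standard deviation of an array, so a difference of 1 is 1 array SD and no fold change can be derived. In whole tissue, fewer cells of a type and less RNA per cell cannot be told apart.

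Mitochondrial ribosomes translate the few proteins encoded by mitochondrial DNA, all of them subunits of the respiratory chain and ATP synthase. Their ribosomal RNAs come from mitochondrial DNA, whereas every protein component is encoded in the nucleus, made in the cytosol and imported. Many have counterparts in the bacterial ribosome and others are found only in mitochondria. The kidney, whose proximal tubules are packed with mitochondria, depends on this system for the energy of reabsorption. Nuclear genes of mitochondrial proteins commonly carry promoter elements for NRF1, for ETS factors such as GABP, and for YY1.

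Promoters are shown for 6 of the genes to set sequence beside the expression values. Of the 49 genes, 43 had a window in the RefSeq promoter sequences (GRCm38.p6), taken from 250 bases before to 50 bases after the annotated start. On either strand, GCGCATGC (NRF1) was found in 5 windows (11.6%, against 3.93% of 17491 protein-coding genes), CCGGAAG (ETS) in 12 (27.9%, against 12.9%) and ATGGCGGC (YY1) in 6 (14.0%, against 3.5%). At least 1 of the 3 was found in 18 of 43 windows (41.9%, against 18.5%). The median GC content was 57.7% in the members and 56.3% in protein-coding genes. A match is a run of letters, not a measured binding site, and these shares were not tested. The 150 bases before the start are printed with matches in capitals. Mrpl32 held the most NRF1 matches, Mrpl9 and Mrpl17 hold one close to the start, and Mrpl58 has a pair of ETS matches. Mrpl36 and Mrps25, which had the steepest upward age slopes, had no match in their windows.
Mrpl32, chr13:14613038-14613187, minus strand: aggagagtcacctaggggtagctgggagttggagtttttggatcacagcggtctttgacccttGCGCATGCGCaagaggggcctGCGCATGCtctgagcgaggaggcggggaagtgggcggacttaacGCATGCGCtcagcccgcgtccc
Mrpl9, chr3:94443186-94443335, plus strand: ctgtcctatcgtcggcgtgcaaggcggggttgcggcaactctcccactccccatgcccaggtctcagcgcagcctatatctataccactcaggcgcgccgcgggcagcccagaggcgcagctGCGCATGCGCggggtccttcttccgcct
Mrpl17, chr7:105811088-105811237, minus strand: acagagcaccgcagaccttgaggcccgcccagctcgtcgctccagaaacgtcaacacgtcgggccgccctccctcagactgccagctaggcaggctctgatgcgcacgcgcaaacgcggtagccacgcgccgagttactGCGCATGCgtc
Mrpl58, chr11:115403602-115403751, plus strand: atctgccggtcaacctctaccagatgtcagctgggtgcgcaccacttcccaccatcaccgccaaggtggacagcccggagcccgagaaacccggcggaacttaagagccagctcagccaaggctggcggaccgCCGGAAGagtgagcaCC
Mrpl36, chr13:73330859-73331008, plus strand: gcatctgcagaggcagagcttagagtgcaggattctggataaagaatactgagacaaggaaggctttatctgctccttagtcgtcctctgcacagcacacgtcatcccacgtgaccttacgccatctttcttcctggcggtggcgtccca
Mrps25, chr6:92184024-92184173, minus strand: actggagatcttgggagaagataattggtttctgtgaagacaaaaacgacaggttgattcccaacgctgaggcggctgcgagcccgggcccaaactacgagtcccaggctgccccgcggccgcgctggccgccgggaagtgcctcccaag
In Mrpl32 and in Mrpl9 the longest capitals are GCGCATGCGC, in which the motif reads on both strands. The last capitals of Mrpl58 are the first bases of a match that crosses the start. Mrpl17 had a further ETS match 237 bases before the start, outside the printed stretch, and Mrpl9 a YY1 match after it.

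Of the 43 genes, 12 (27.9%) had the start of another gene on the opposite strand within 500 bases upstream, compared with 11.7% of protein-coding genes, and these shares were not tested either. In 1 case both genes were members: Mrpl46 and Mrps11 are transcribed away from each other from starts 41 bases apart, and the stretch between them is shown for that reason.
Mrpl46 to Mrps11, chr7:78783090-78783130, plus strand: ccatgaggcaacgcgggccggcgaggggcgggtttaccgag
It has a GC content of 73.2% and none of the 3 motifs. Sars2, the mitochondrial seryl-tRNA synthetase, starts 146 bases from Mrps12, and Fau, which encodes a cytosolic ribosomal protein fused to a ubiquitin-like protein, starts 191 bases from Mrpl49.

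The differences of the mitochondrial ribosomal protein genes with age and sex were centred close to 0. No member passed at an adjusted p under 0.05 (limma, Benjamini-Hochberg over 16896 clones) in the linear age slope, in either step between ages, between the sexes, or in the sex difference that varies with age. In these comparisons 0% of all clones passed, except between males and females, where 0.107% (18 clones) did. For the slope, which is fitted over all 40 mice with sex as a second term, 27 of 49 genes were above 0 and 22 below, with a median of 0.00594 array SD per year against 0.000255 over all clones. Between 704 to 743 and 169 to 194 days, 25 were higher and 24 lower (median 0.000413, all clones 0.000988). Between 169 to 194 and 17 to 44 days, 27 were higher and 22 lower (median 0.0157, all clones 0.0022), and the median was -0.0128 without the 5 mice of 33 to 44 days. Large and small subunit genes gave medians of 0.00194 and 0.0189 per year for the slope, and -0.00292 and 0.0154 for 704 to 743 against 169 to 194 days. The 33 genes of bacterial families had a median slope of 0.00468 and the 15 found only in mitochondria one of 0.013.

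**Figure D1:**
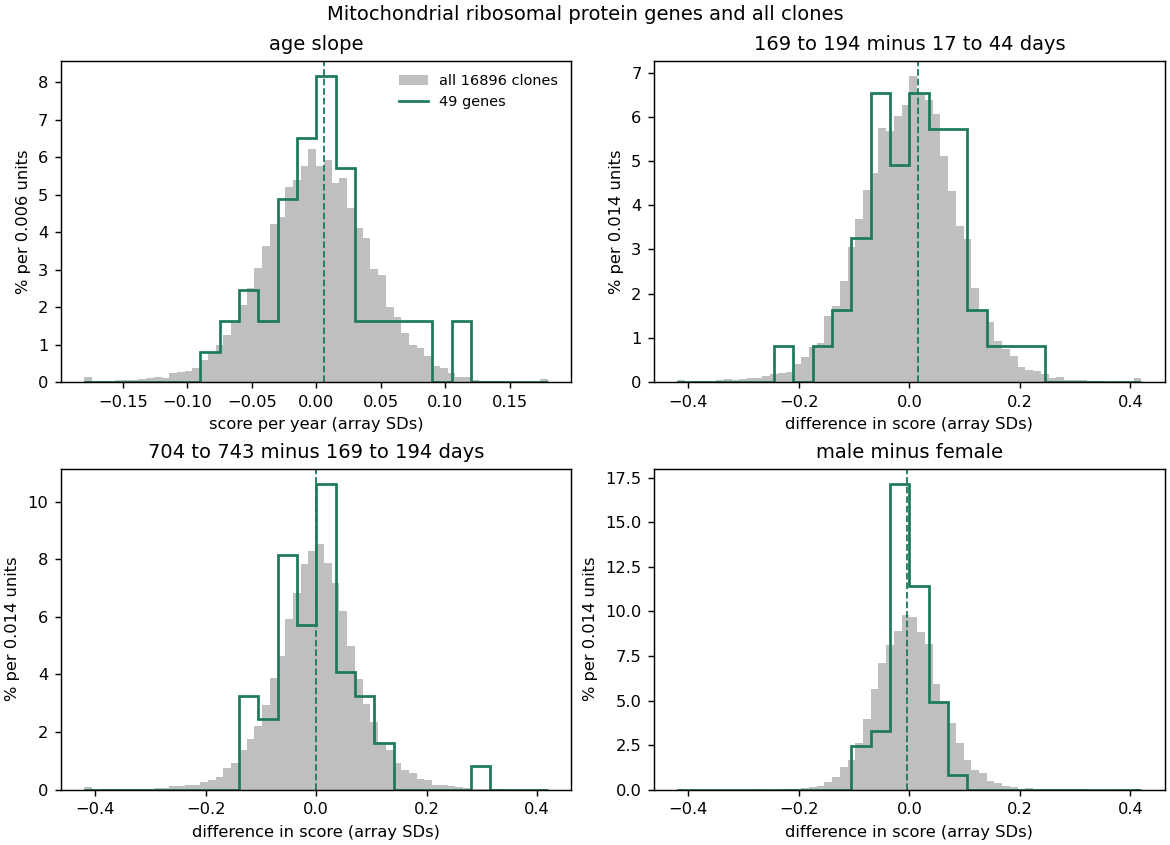
Share of clones (grey, all 16896) and of the 49 genes (green line, 1 clone per gene, wider bins scaled to the same width) by age slope in array SD per year, or by difference in score in array SDs, with the members' median as a dashed line. The members' distribution is centred close to 0 in all 4 panels, with single genes in the tails; clones beyond an axis limit are counted in the end bin.

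Counts at an unadjusted p under 0.05 were small and are set against the share of all clones. For the slope, 3 of 55 member clones were higher (background 3.04%) and 0 lower (2.16%). For 169 to 194 against 17 to 44 days, 3 were higher (2.44%) and 1 lower (2.65%). For 704 to 743 against 169 to 194 days, 1 was higher (1.09%) and 1 lower (1.26%). The 10 mice of one age never lay wholly apart from the 10 of the other in either step for any member, nor for any clone on the arrays (0%). The arrays set the precision: the 95% confidence interval of a member reached a median of 0.154 array SD to either side of its difference between ages (0.0954 to 0.276), and 0.0713 per year for the slope.

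**Figure D2:**
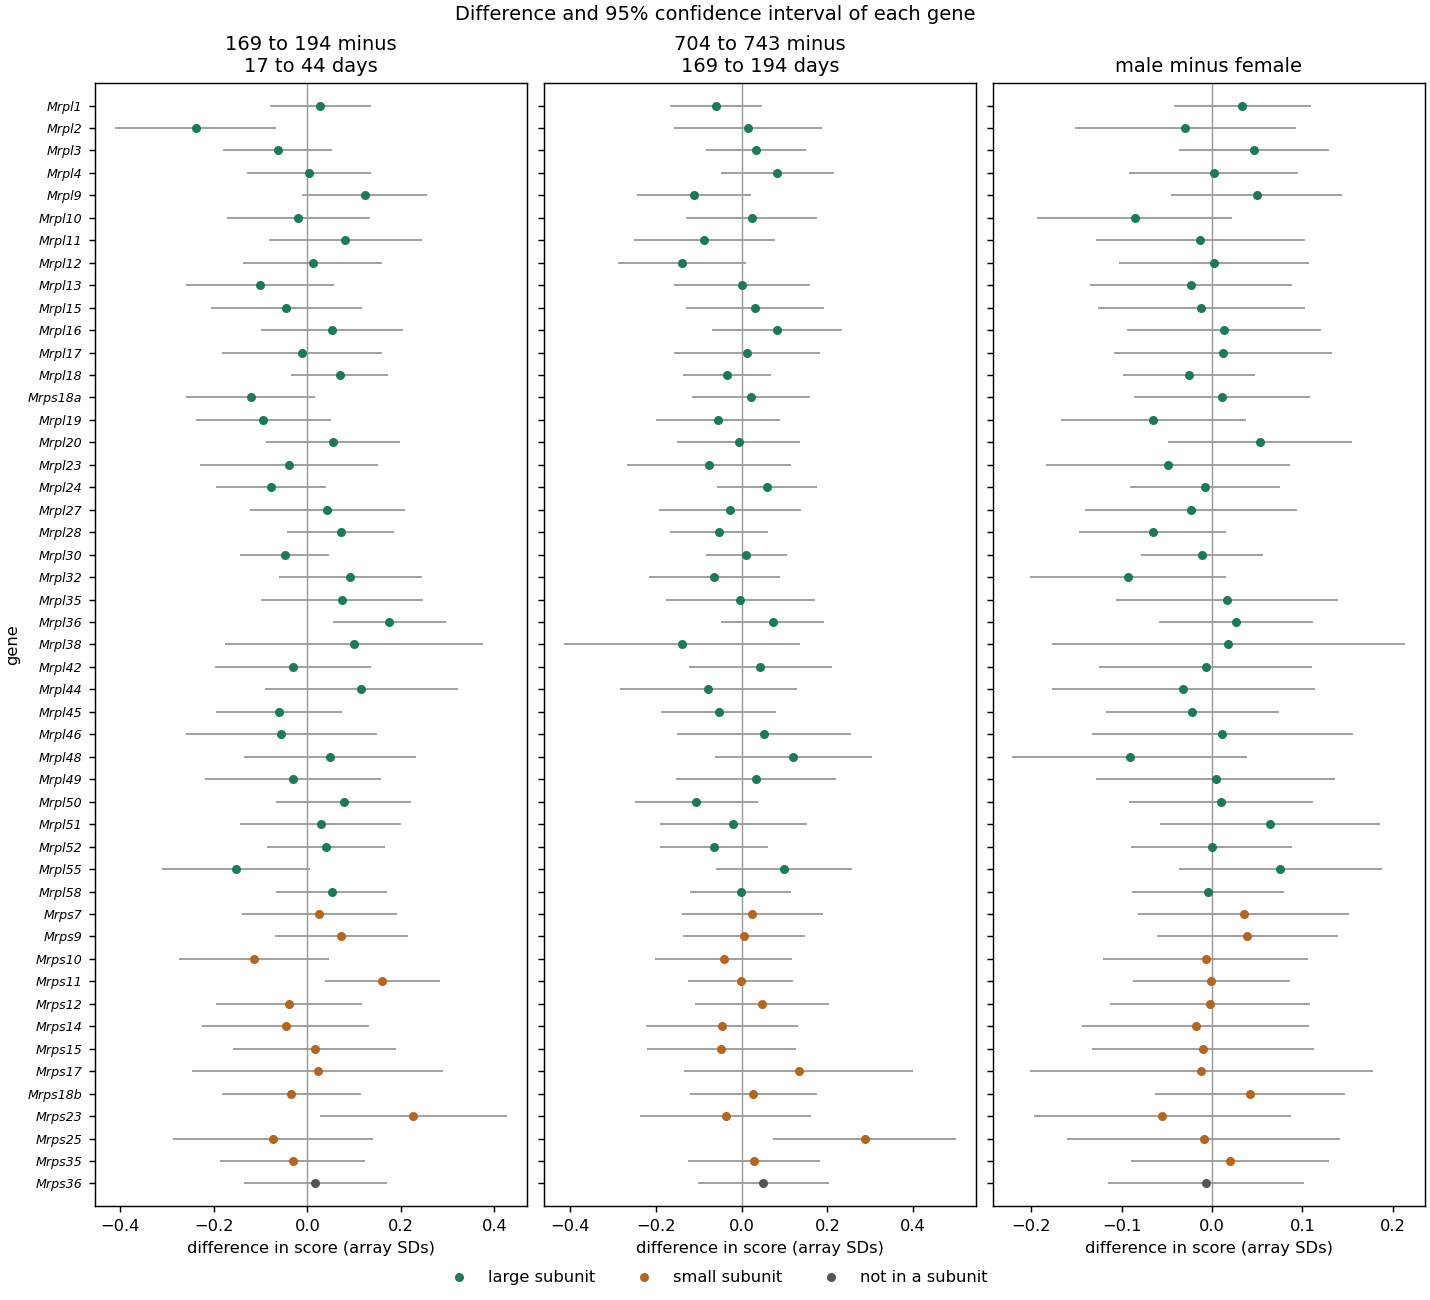
Difference in score (array SDs) of each of the 49 genes with its 95% confidence interval, in the step between the youngest ages (left), between 704 to 743 and 169 to 194 days (middle) and between males and females (right), with large subunit, small subunit and other genes in different colours. Most intervals hold 0; Mrps25 is the only gene whose interval lies off 0 in the middle panel.

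Per mouse, the median deviation of the 49 genes from their own mean scores showed no order with age. It had a mean ± SD over 10 mice of -0.0078 ± 0.0256 in those of 17 to 44 days, -0.00292 ± 0.033 in those of 169 to 194 days, 0.0164 ± 0.0214 in those of 476 to 499 days and -0.0115 ± 0.0275 in those of 704 to 743 days. The values of the 4 ages overlapped. The mean ± SD over 20 mice was -0.00635 ± 0.0272 for males and 0.00345 ± 0.0292 for females. Serial numbers in the sample titles place the arrays in 5 rounds, an inferred grouping in which all 8 groups occur once per round. Within rounds the members' median difference for 704 to 743 against 169 to 194 days was -0.0395, 0.0117, -0.0244, 0.0119 and -0.0193. For 169 to 194 against 17 to 44 days it was 0.0662, 0.0184, 0.00775, -0.0382 and 0.0469.

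**Figure D3:**
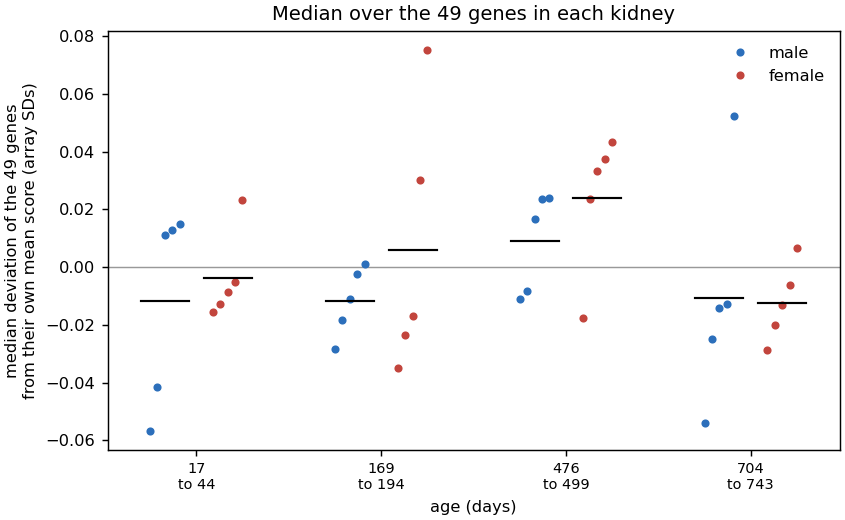
Median over the 49 genes of the deviation from each gene's own mean score (array SDs), 1 point per mouse, by age in days, males left of females, with bars for the mean of 5 mice. The points of all groups overlap around 0, between -0.0566 and 0.0752.

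Mrpl36, a small large-subunit protein with a bacterial counterpart, had the lowest p of the family for the age slope. Its score had a lowest, median and highest value of 0.0715, 0.37 and 0.535 at 17 to 44 days, 0.431, 0.51 and 0.629 at 169 to 194 days, 0.264, 0.529 and 0.709 at 476 to 499 days, and 0.432, 0.629 and 0.751 at 704 to 743 days. The youngest mice had the lowest median, and their values overlapped those of every later age. A score of 0.1215 at 17 to 44 days came from a male whose set B array, which carries Mrpl36, had a mean correlation of 0.922 with the others. The slope was 0.107 ± 0.029 array SD per year (SE, limma p = 6.53e-04, adjusted p = 0.821) and was above 0 in each of the 5 rounds. Rounds are parts of the same mice from which the named genes were picked, so their signs are no independent support for any of these genes. The mean ± SD over 10 mice was 0.521 ± 0.082 in the mice of 169 to 194 days and 0.346 ± 0.155 in those of 17 to 44 days, which gave a difference of 0.175 ± 0.0596 (SE, limma adjusted p = 0.933).

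Mrps11, the small subunit protein that shares its divergent promoter with Mrpl46, had its lowest median in the youngest mice. Its scores were lowest, median and highest at -0.601, -0.429 and -0.221 at 17 to 44 days, -0.399, -0.285 and -0.0612 at 169 to 194 days, -0.528, -0.18 and -0.097 at 476 to 499 days, and -0.495, -0.265 and -0.144 at 704 to 743 days. Only the youngest group had a median below -0.4, and its values overlapped those of every later age. The difference of 169 to 194 minus 17 to 44 days was 0.16 ± 0.0608 (SE, limma p = 0.012, adjusted p = 0.933) and was above 0 in all 5 rounds. The slope was 0.0722 ± 0.03 per year (adjusted p = 0.937). Without the 5 mice of 17 to 21 days the difference was 0.0752 and the slope 0.0295. Its head-to-head neighbour Mrpl46, of the large subunit, had a difference of -0.0556 ± 0.101 in the same step and a slope of 0.024 ± 0.0474, on a clone in the dimmest 25% of its set.

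Mrps25, a small subunit protein without a bacterial counterpart, was the one member with an unadjusted p under 0.05 and a higher score in the oldest mice than at 169 to 194 days. Its lowest, median and highest scores were 0.0374, 0.214 and 0.383 at 17 to 44 days, -0.128, 0.0568 and 0.65 at 169 to 194 days, -0.475, 0.265 and 0.599 at 476 to 499 days, and 0.106, 0.359 and 0.895 at 704 to 743 days. The oldest mice spread widely and overlapped every other age. Their mean ± SD over 10 mice was 0.415 ± 0.256, against 0.128 ± 0.229 in mice of 169 to 194 days, which gave a difference of 0.287 ± 0.106 (SE, limma p = 0.0098, adjusted p = 0.9997) that was above 0 in each of the 5 rounds. The difference ran from 0.228 to 0.346 when single mice were left out. Its slope was 0.112 ± 0.0504 per year (adjusted p = 0.937) and was above 0 in 4 of the 5 rounds. Another 3 clones listed under both Mrps25 and Nr2c2 lay outside the family by the 1-symbol rule. They had differences of 0.071, -0.0537 and -0.0221 in the same step, with unadjusted p of 0.393, 0.36 and 0.735. One male of 714 days carries a description that names another mouse, and without it the Mrps25 difference was 0.327.

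Mrps23 and Mrpl2 stood out in the earliest step, in opposite directions. Mrps23, a mitochondria-specific protein of the small subunit, had lowest, median and highest scores of 0.102, 0.221 and 0.455 at 169 to 194 days, against -0.654, 0.135 and 0.373 at 17 to 44 days. The difference was 0.227 ± 0.0991 (SE, limma p = 0.0276, adjusted p = 0.933) and was above 0 in 4 of the 5 rounds. Mrpl2, whose bacterial counterpart lies near the peptidyl transferase centre, had -1.61, -1.38 and -1.2 at 169 to 194 days, against -1.69, -1.2 and -0.575 at 17 to 44 days. The difference was -0.239 ± 0.0855 (SE, limma p = 0.00801, adjusted p = 0.933), on a clone in the dimmest 25% of set A, and was below 0 in 4 of the 5 rounds. Mrps23 had an SD of 0.104 at 169 to 194 days and 0.343 at 17 to 44 days, and Mrpl2 one of 0.138 at 169 to 194 days and 0.3 at 17 to 44 days, differences in spread that were not tested. The lowest Mrps23 score and the highest Mrpl2 score came from the same male of 43 days, whose set A array had the lowest mean correlation with the other arrays (0.891). Without that male the differences were 0.14 and -0.174. The Mrps23 difference was 0.0674 without the 5 mice of 33 to 44 days, 0.391 without the 5 of 17 to 21 days and 0.148 with array weights, and the Mrpl2 difference was -0.135 without the 5 of 17 to 21 days.

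**Figure D4:**
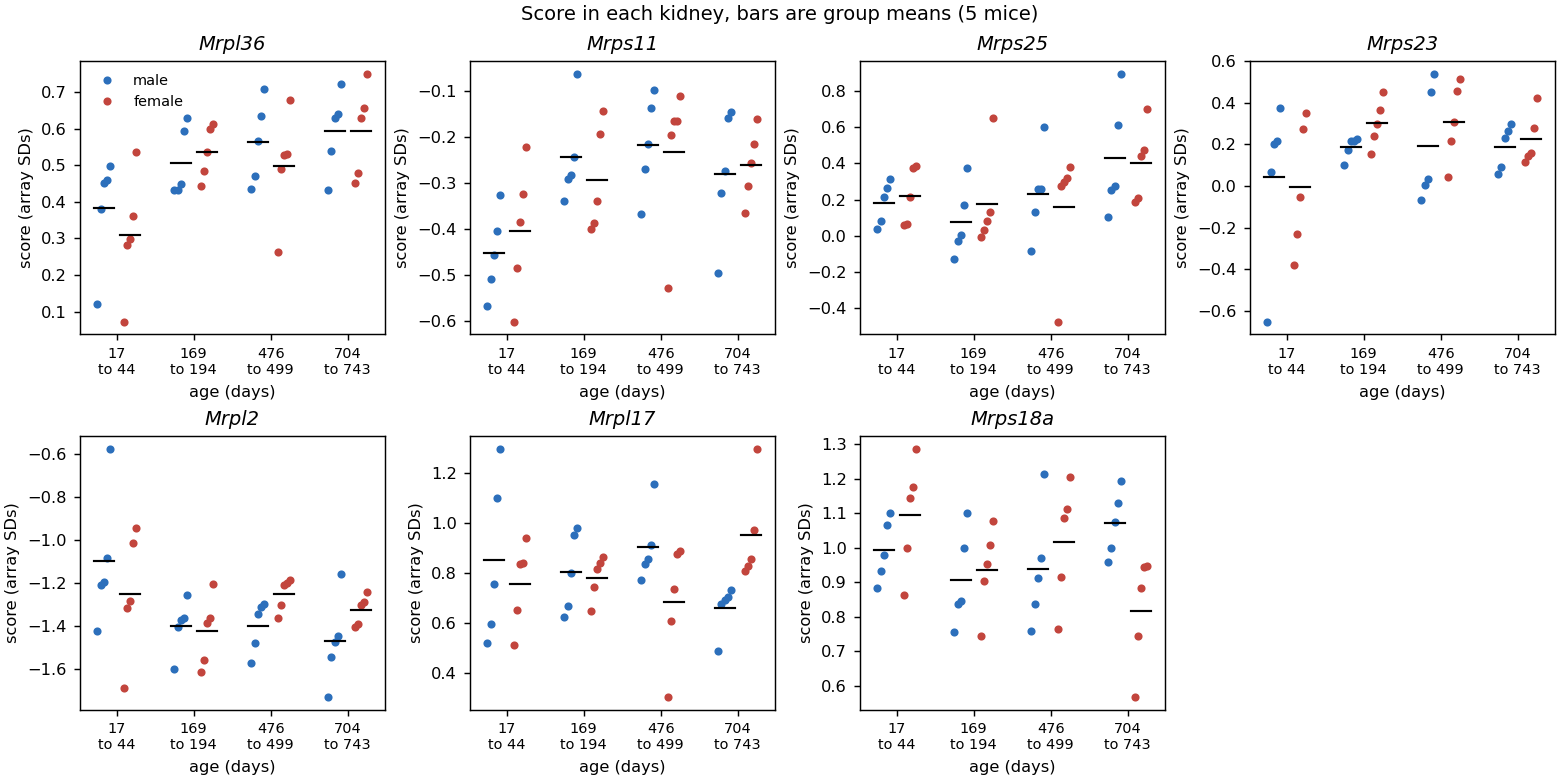
Score in array SDs of 7 genes in each kidney by age in days, males left of females, 1 point per mouse in rising order within a group, with bars for the mean of 5 mice. Mrpl36 and Mrps11 have their lowest group means at 17 to 44 days, Mrps25 has its highest points at 704 to 743 days, and Mrpl17 and Mrps18a show males and females apart at 704 to 743 days, in opposite directions.

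The remaining members with the lowest p in each step did not pass and are given as values. Between 169 to 194 and 17 to 44 days, Mrpl9 differed by 0.123 ± 0.0658, Mrpl55 by -0.153 ± 0.0785, Mrps18a, which despite its name sits in the large subunit, by -0.121 ± 0.0681, and Mrps10 by -0.115 ± 0.0792 (SE). The Mrpl55 difference was -0.553 in the fifth round and -0.0761 to -0.0326 in the other 4. It was -0.0747 without 1 male of 17 to 44 days, whose set B array had a mean correlation of 0.922 with the others, -0.0213 without the mice with outlying arrays and -0.0627 with array weights. It was -0.0462 without the 5 mice of 33 to 44 days and -0.237 without the 5 of 17 to 21 days. The Mrpl9 difference was 0.0812 without 1 male of 169 to 194 days, and that of Mrps10 was -0.181 without the mice of 33 to 44 days. Between 704 to 743 and 169 to 194 days, Mrpl12, a protein of the ribosomal stalk also reported to bind the mitochondrial RNA polymerase, differed by -0.139 ± 0.0737 (SE, limma p = 0.066). Mrpl9 differed by -0.11, Mrpl50 by -0.106 and Mrpl1 by -0.0606, and on the upper side Mrpl48 by 0.121, Mrpl55 by 0.0992 and Mrpl4 by 0.0825. Without the mice with outlying arrays the differences of Mrpl48 and Mrpl55 were 0.0699 and 0.0168. With single mice left out Mrpl48 came to 0.0719, Mrpl55 to 0.061, Mrpl4 to 0.0438, Mrpl9 to -0.0689 and Mrpl1 to -0.0385 at their nearest to 0, and Mrpl4 was 0.0284 with array weights. Mrpl9 and Mrpl55 thus had opposite signs in the 2 steps, and both steps use the mice of 169 to 194 days. For the slope the lowest p below 0 belonged to Mrpl19 (-0.066), Mrpl45, which tethers the ribosome to the inner membrane (-0.0593), Mrpl2 (-0.0802) and Mrpl12 (-0.0584), and Mrpl48, a protein of the central protuberance, had 0.0779 per year, or 0.0375 without the mice with outlying arrays and 0.0517 with array weights. The second Mrpl48 clone had a slope below 0 in 3 of the 5 rounds (-0.331 to 0.126), and the named clone in 2. The Mrpl2 slope was -0.0496 without the male of 43 days and -0.0356 without the mice of 17 to 21 days.

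No sex difference over the 4 ages together was detected for any member. Of the 49 genes 21 were higher and 28 lower in males (median -0.00466, all clones -0.00117), and 0 of 55 clones had an unadjusted p under 0.05 in either direction, against 1.76% of all clones higher and 2.72% lower. The 95% confidence interval of the sex difference reached a median of 0.109 array SD to either side. The lowest p was that of Mrpl32, a large subunit protein that matures by cleavage of its precursor. For Mrpl32 the mean ± SD over 20 mice was -0.0719 ± 0.199 for males and 0.0209 ± 0.105 for females, with a difference of -0.0929 ± 0.0535 (SE, limma p = 0.0903, adjusted p = 0.982). Mrpl48 (-0.0911), Mrpl10 of the stalk base (-0.0856) and Mrpl28 (-0.0658) followed below 0, and Mrpl55 (0.0754), Mrpl51 (0.064), Mrpl9 (0.0492) and Mrpl3 (0.0462) above it. These sizes depended on few mice. Without the mice with outlying arrays Mrpl48 was at -0.0178 and Mrpl32 at -0.0542, and without the mice of 17 to 21 days Mrpl10 was at -0.0478. Without 1 male of 17 to 44 days Mrpl55 was at 0.0363 and Mrpl3 at 0.0297, without 1 female of 476 to 499 days Mrpl51 was at 0.0381, and without 1 male of 169 to 194 days Mrpl9 was at 0.0285. The second Mrpl48 clone was below 0 in 3 of the 5 rounds (-0.199 to 0.221), and the named clone in 4.

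Mrpl17 and Mrps18a had the lowest p in the F test of a sex difference that varies with age, in which 2 of 55 member clones had an unadjusted p under 0.05 against 3.23% of all clones. Mrpl17, a large subunit protein with a bacterial counterpart, had scores of 0.693, 0.732, 0.703, 0.487 and 0.677 in males of 704 to 743 days and 0.855, 0.972, 0.806, 1.3 and 0.826 in females of that age. Every male of that age lay below every female. The score of 1.3 came from the female whose set B array, which carries Mrpl17, had the lowest mean correlation of that set with the others (0.916). At 476 to 499 days the order of the means was the other way, 0.905 ± 0.147 for males and 0.683 ± 0.24 for females (mean ± SD of 5 mice). Mrps18a had 1.08, 1.19, 1.13, 0.957 and 1 in males of 704 to 743 days and 0.745, 0.882, 0.945, 0.947 and 0.567 in females of that age. Here every male lay above every female. Such a separation of 5 males and 5 females was examined at the oldest age only. It was seen there in 0.692% of all clones, and these are the 2 member clones that show it. The F tests did not pass (limma, Mrpl17 p = 0.0279, Mrps18a p = 0.0456, adjusted p = 0.99998 for both), nor did those of Mrpl11 (p = 0.0839), a stalk base protein, and Mrpl19 (p = 0.124).

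The members differed in how steady they were between mice of a group. The residual SD had a median of 0.173 over the 49 genes, against 0.175 over all clones. It was largest for Mrpl38 (0.327), Mrps17 (0.318) and Mrps25 (0.247) and smallest for Mrpl30 (0.0898), Mrpl18 (0.102) and Mrpl1 (0.108). Mrpl38 ran from 0.483 to 1.4 within the mice of 704 to 743 days. Mrps17 had a score of 1.58 in 1 male of that age, where the other 9 mice lay between -0.282 and 0.488. The second Mrps17 clone, on the same set, did not show this. It was at -0.563 in that male, and all males of that age lay between -0.585 and -0.5195. The same male had the highest Mrps25 and the lowest Mrpl17 score among the males of its age.

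Genes with 2 clones gave a limited check of the measurement itself. After removal of the 8 group means, the clones of Mrpl45, both on set B, varied together over the 40 mice (Pearson r = 0.498, Spearman rho = 0.478, permutation p adjusted over 6 genes 0.00774 and 0.0122). Without the 2 mice farthest from the median, r was 0.414. With the means of the 5 rounds removed as well, r was 0.374 (adjusted permutation p = 0.102), and 0.184 without the 2 farthest mice. The other 5 genes, Mrpl23, Mrpl48, Mrpl50, Mrps17 and Mrps7, had r between 0.163 and 0.295 (rho 0.147 to 0.302), with adjusted permutation p of 0.201 to 0.295 for r. Without the 2 farthest mice their r ran from 0.127 to 0.294. The test compares r with 0 and not with unrelated clones of the same filter. Over all pairs of clones the quartiles of r, with group means removed, were -0.189 and 0.186 on set A and -0.217 and 0.213 on set B. Of the pairs on 1 set, Mrpl48 (0.223) and Mrps7 (0.295) lay above the upper quartile and Mrps17 (0.163) did not. The clones of Mrpl48 had opposite differences for 704 to 743 against 169 to 194 days, 0.121 ± 0.0907 for the brighter and -0.206 ± 0.0994 for the other (SE, limma p = 0.0448, adjusted p = 0.9997), which lies in the dimmest 25% of set A. In the same step the clones of Mrpl50 were at -0.106 and -0.103, and those of Mrpl45 at -0.054 and -0.0521. The second Mrpl50 clone ran from -0.697 to 0.686 over the 5 rounds, so its closeness to the first says little. The clones of Mrpl23 and those of Mrps17 shared a sign in that step, and those of Mrps7 did not. Of the 55 clones 13 lay in the dimmest 25% of their set and 15 in the brightest.

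**Figure D5:**
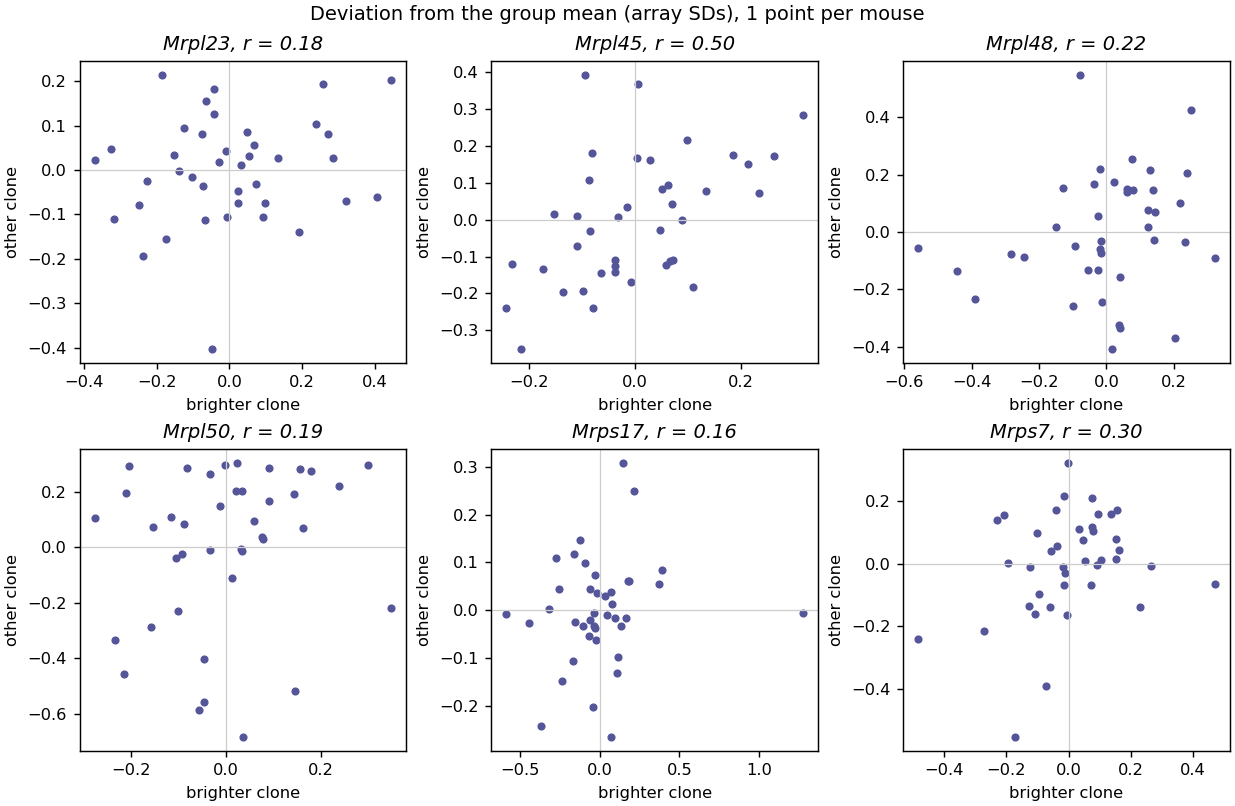
Deviation from the group mean (array SDs) of the 2 clones of a gene, brighter clone across and other clone up, 1 point per mouse (40), for the 6 genes with 2 clones. The points of Mrpl45 (r = 0.498) run along a rising diagonal, and those of the other genes scatter more widely (r 0.163 to 0.295).

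Pairs of members had correlations centred close to 0 from mouse to mouse. Over the 40 mice, with group means removed, the median r between pairs of members was 0.0267 on set A (325 pairs) and -0.0308 on set B (253 pairs), against -0.0046 and -0.00844 for all clones. Cytosolic ribosomal protein genes had 0.056 and 0.0589, and genes of complex I and ATP synthase 0.0706 and 0.0468. The clones of a set share the same 40 hybridisations, so these values are descriptions and were not tested.

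The nuclear genes whose products work beside mitochondrially made subunits had lower medians than the ribosomal proteins themselves for 704 to 743 against 169 to 194 days. In that step, 10 of 12 cytochrome c oxidase subunit genes were below 0 (median -0.0649) and 36 of 44 genes of complex I and ATP synthase were (median -0.0434). This compares with 24 of 49 mitochondrial ribosomal protein genes and 49.4% of all clones. The cytosolic ribosomal protein genes had 35 of 65 above 0 and a median of 0.00101 in that step. For 169 to 194 against 17 to 44 days the direction was the other way. There 9 of 12 cytochrome c oxidase genes (median 0.0308) and 29 of 44 genes of complex I and ATP synthase (median 0.0106) were above 0. The members had 27 of 49 (median 0.0157) and the cytosolic ribosomal protein genes 45 of 65 (median 0.0409). Both steps use the mice of 169 to 194 days. No gene of these 3 lists passed, and the differences between the lists were not tested.

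Other parts of the mitochondrial translation system held no gene that passed either. Apart from Dap3, the single genes named here were picked for an unadjusted p under 0.05. Over all clones 1.09% to 3.04% had such a p in each direction of a signed comparison. The picks were not tested against these shares and are given as values only. Of 7 translation factors on the arrays 4 had a slope below 0. Tufm, the elongation factor that brings aminoacyl-tRNA to the mitochondrial ribosome, had a slope of -0.108 ± 0.0408 per year, a difference of -0.203 ± 0.0792 for 169 to 194 against 17 to 44 days and one of -0.126 ± 0.056 for males against females (SE, limma adjusted p = 0.937, 0.933 and 0.982). Of 13 aminoacyl-tRNA synthetases 9 had a slope above 0. Ears2 was at 0.223 in males against females and Gars at 0.274 for 169 to 194 against 17 to 44 days, both on clones in the dimmest 25%. Of 17 genes of ribosome assembly and rRNA modification 9 had a slope above 0, among them the protease Spg7, which processes the Mrpl32 precursor (0.0516), and 8 below, among them the rRNA methyltransferase Nsun4 (-0.0611). Rpusd4, a pseudouridine synthase of the same list, was at -0.253 for 169 to 194 against 17 to 44 days. Of 17 genes for transcription, replication and RNA stability of mitochondrial DNA 14 had a slope above 0 (median 0.0279), among them Tk2, mitochondrial thymidine kinase (0.114), and Elac2, the tRNA-processing nuclease (0.0695). Of 6 regulators of mitochondrial biogenesis 2 had a slope above 0, and Gabpb1, a subunit of the ETS factor GABP, was at -0.123 in males against females. Dap3, a small subunit protein whose symbol does not match the family name, had a slope of 0.012 ± 0.0274.

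Kidney identity could be checked only in part. Of 16 proximal tubule markers 4 were on the arrays, 2 of them in the brightest 25% of their set, and markers of T and NK cells and of adipocytes had no clone with a single symbol. Of 6 adrenal cortex markers 4 were on the arrays, and 2 of them were in the brightest 25% as well. Markers of the loop of Henle and distal tubule (2 on the arrays), collecting duct (1) and podocytes (2) had 0 in the brightest 25%, whereas some markers of other cells lay there. So were 6 of 8 markers of fibroblasts and matrix, 2 of 5 of macrophages and myeloid cells, 2 of 4 of erythroid cells and 1 of 3 of endothelium. Of B cell (2 on the arrays) and skeletal muscle markers (1), 0 were in the brightest 25%. Brightness of these markers thus did not set kidney apart from other cells or tissues, and it did not single out the neighbouring adrenal cortex. The 4 proximal tubule markers had slopes of 0.00692 to 0.0753 per year and differences of -0.00874 to 0.0743 for 704 to 743 against 169 to 194 days. Ighm, the heavy chain of IgM and 1 of 2 B cell markers on the arrays, was at 0.341 ± 0.0689 for 704 to 743 against 169 to 194 days (SE, limma adjusted p = 0.241). The other B cell marker was at 0.073 in that step. The 2 had opposite signs for 169 to 194 against 17 to 44 days (-0.24 and 0.0508) and between males and females (-0.2 and 0.0564). None of the marker genes passed in any comparison, and their part in the members' values was not tested.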

How the data were processed

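Each kidney RNA was radioactively labelled and hybridised to filters of set A and set B (80 arrays), per the labels' protocols. The deposited values are scores, z scores centred and scaled per array by the authors; how images were read and background removed, and on which scale, is not given in the sources used here. The 55 members were found by symbol in the platform annotation, which names 9663 of 16896 clones with 1 symbol, 436 with several and 6797 with none; all 49 genes matched RefSeq by gene ID. A gene with 2 clones is represented by the clone of highest mean score. Scores were quantile normalized within each set, since the interquartile range of an array departed from the median by up to 7.63% (set A) and 4.21% (set B), and fitted with lmFit and eBayes (limma 3.58.1, R 4.3.3), with sex and linear age for the slope and 8 group means otherwise. P-values were adjusted over both sets. Scripts were tested on simulated data. Clone pairs used permutation tests with 100000 resamples (2-sided).

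No other column was left out, and no value was missing. The rounds were inferred from serial numbers. The labels give each mouse 1 array per set. The named genes were, in each signed comparison, the 4 members of lowest p in each direction, the 4 of lowest p in the F test, every gene with 2 clones, and the 3 largest and 3 smallest residual SDs; the in-depth genes are those with an unadjusted p under 0.05. From the other pathway lists, genes with an unadjusted p under 0.05 were named. Dap3 and Ighm were named after their values were seen. The members, lists and tests were chosen with earlier results of these data known. Alternatives were unnormalized scores, the round as a block, array weights, eBayes with trend, removal of dim clones, of outlying arrays and of the youngest mice, and removal of each mouse.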

Additional observations from a re-analysis of the deposited data

Results flagged for a closer look

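Among the 7 genes described in detail and the members' median, 64 groups of 5 mice were examined for a value far from the other 4, and 5 had one; chance gives about 1 in 20 groups. Mrps11 was at -0.528 in 1 female of 476 to 499 days, with the other females of that group between -0.195 and -0.109. Mrps25 was at 0.65 in 1 female of 169 to 194 days, where the others lay between -0.00788 and 0.132, and at -0.475 in 1 female of 476 to 499 days, where the others lay between 0.272 and 0.38. Mrpl17 was at 0.487 in 1 male of 704 to 743 days, with the others between 0.677 and 0.732. The members' median deviation was 0.0233 in 1 female of 17 to 44 days, with the others between -0.0155 and -0.00519. The female of 169 to 194 days was 1 of 5 mice with an outlying array, though on set B, whereas Mrps25 lies on set A.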

How the results depend on the processing

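Members passing the threshold numbered 0 in all 5 comparisons under every alternative assessed and with each of the 40 mice left out. The lowest adjusted p of a member in any of these limma fits was 0.442. Removal of the mice of 33 to 44 days was assessed only for 169 to 194 against 17 to 44 days. All 32 differences of the members named by lowest p kept their direction over all settings (1509 values), and their adjusted p stayed above the threshold. They were picked by lowest p from these same mice, and most settings left out a single mouse. Kept directions are therefore no independent support. The sizes of several moved by over 1.5 times, as given beside their values. Over all clones, 2 passed for the age slope with the round as a replicate block and 2 with array weights, and 0 to 1 when single mice were left out (1 without male 704 to 743 days replicate 1, without female replicates 1 or 2 of that age, without female 476 to 499 days replicate 2 or without female 17 to 44 days replicate 4). For 169 to 194 against 17 to 44 days 1 passed without the mice of 17 to 21 days, and for 704 to 743 against 169 to 194 days 1 with array weights. Between males and females 11 clones passed without the mice of 17 to 21 days, 19 with the replicate block and 27 with array weights, against 18. The members' median for 169 to 194 against 17 to 44 days was -0.0128 without the mice of 33 to 44 days, against 0.0157, a shift beyond the SD between mice of a group (0.028). The other medians moved by less than that SD, although their signs were not stable so close to 0. That SD describes single mice and is larger than every members' median in the main fit. A shift below it therefore does not show that a median was stable. The correlation of the Mrpl45 clones was 0.374 with group and round means removed (replicate block, adjusted p = 0.102) and no longer passed. The cause was not tested for any of these changes. Correlations for Mrpl23 and Mrpl50, whose clones lie on different sets, were added after seeing the data. The arrays' number limits what small differences can be seen.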
